A study of Homo sapiens with 12 samples.

Results

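Hsa-miR-184 was 1 of 501 microRNA (miRNA) assays in the authors' table, and was found by its assay name. It was selected on its measured siSOX2 minus NC differences, because its level in SOX2-silenced cells differed from that in control cells in opposite directions in 2 human embryonal carcinoma cell (hECC) lines. The siSOX2 against NC values of miR-184 below are therefore a description with no test. MiRNA levels were measured by TaqMan array cards in 12 samples. The groups were NTera-2 cells with siSOX2, an siRNA against SOX2, and NTera-2 cells with NC, a control siRNA without a target, followed by 2102Ep cells with siSOX2 and 2102Ep cells with NC. Each group held 3 samples labelled as biological replicates. NTera-2 is a pluripotent line, while the 2102Ep line is termed nullipotent. The siRNA was given at 30 nM with Lipofectamine RNAiMAX in NTera-2 and at 15 nM with Lipofectamine 2000 in 2102Ep cells, for 6 h, and RNA was taken after a further 72 h. Cell line, siRNA dose and transfection reagent therefore cannot be told apart. SOX2 itself was not analysed here.

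MiRNAs are short RNAs that pair with messenger RNAs, mainly through a seed at bases 2 to 8 of the mature strand, and lower their translation and stability. SOX2 is a transcription factor that holds embryonal carcinoma and embryonic stem cells in an undifferentiated state. MiR-184 is best known as an abundant miRNA of the corneal and lens epithelium, and a mutation of its seed causes an inherited human disease of the cornea with cataract. In the mouse it is also known from adult neural stem cells, where it favours proliferation, and from pancreatic islets.

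The mature strand is shown because the assay reads this strand alone, and the hairpin shows where it is cut from. In the first line below the seed is in capitals, and in the second the mature strand is in capitals (positions 53 to 74 of 84 bases).
hsa-miR-184: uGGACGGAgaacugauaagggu
MIR184 hairpin: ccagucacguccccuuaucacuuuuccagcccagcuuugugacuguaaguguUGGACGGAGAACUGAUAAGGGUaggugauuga
Both sequences are from RefSeq (GRCh38.p14), which places the hairpin at chr15:79209788-79209871 and the mature strand at chr15:79209840-79209861, on the plus strand. The gene lies within the span of the long non-coding RNA locus ANKRD34C-AS1 in that annotation. Of 2370 mature human miRNAs in the RefSeq table, 1 had this seed, which was miR-184 itself. Its seed holds the letters CG, as do 320 (13.5%) of these miRNAs. No other miRNA on the cards could thus be grouped with miR-184 by seed.

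MiR-184 was measured in all 12 samples. The Ct is the cycle of the PCR at which an assay's signal is first called, so that a low Ct stands for much RNA, and a step of 1 cycle is near 1 unit of log2. The authors' dCt on card A, the card of miR-184, is the Ct minus the mean Ct of miR-16 and of the small nuclear RNA U6 in the same sample. In NTera-2 cells the dCt of miR-184 was 10.90, 10.86 and 10.83 with siSOX2, against 11.90, 12.28 and 12.17 with NC. All 3 siSOX2 samples thus held more miR-184 than any NC sample of this line. In 2102Ep cells the dCt was 5.24, 5.41 and 5.30 with siSOX2, against 4.67, 4.61 and 4.43 with NC. Here all 3 siSOX2 samples held less miR-184 than any NC sample. The same order stood in the raw Ct before any reference was subtracted. NTera-2 cells had a Ct of 25.42, 25.77 and 25.45 with siSOX2, against 26.93, 26.73 and 26.77 with NC. 2102Ep cells had a Ct of 23.48, 23.33 and 23.73 with siSOX2, against 22.95, 22.68 and 22.78 with NC. Of these, the value of siSOX2 replicate 3 was recovered from its dCt, because raw values of this sample stood 1 place out of line in the table.

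**Figure D1:**
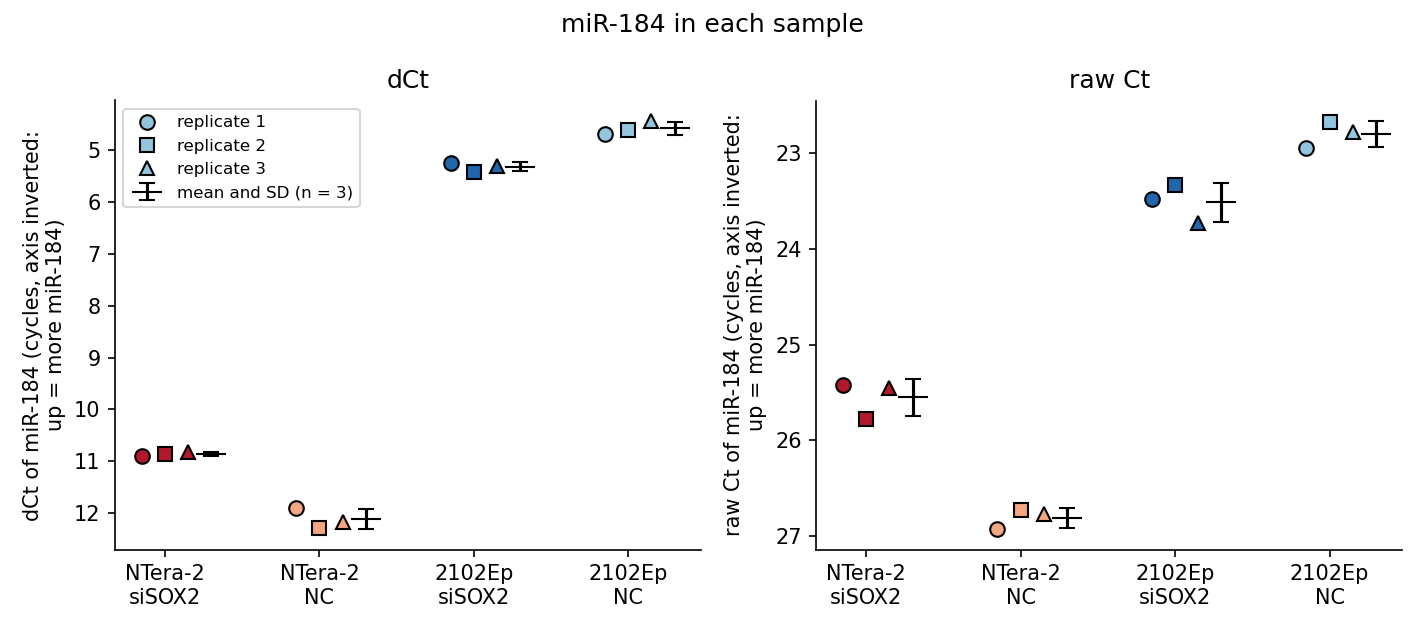
The dCt (left) and raw Ct (right) of miR-184 in cycles, on inverted axes so that more miR-184 is higher, for NTera-2 siSOX2, NTera-2 NC, 2102Ep siSOX2 and 2102Ep NC. Points are samples and bars are mean and SD (n = 3). The siSOX2 samples lie above NC in NTera-2 and below NC in 2102Ep cells, with no overlap in either line.

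As the difference of mean levels (minus dCt), siSOX2 minus NC was 1.25 in NTera-2 cells (a fold of 2.38, pooled SD 0.143) and -0.74 in 2102Ep cells (a fold of 0.597, pooled SD 0.108). Between samples of the same replicate number it was 1.00, 1.42 and 1.34 in NTera-2, and -0.56, -0.80 and -0.87 in 2102Ep cells. Arms that do not overlap were common, at 29% of 451 assays in NTera-2 and 31.9% of 432 assays in 2102Ep cells. With 3 against 3 samples an exact permutation test could not have given a p below 0.1. Counted from the largest rise, miR-184 was 10th of 451 assays in NTera-2 cells (the top 2.22%). Counted from the largest fall, it was 77th of 432 assays in 2102Ep cells (the lowest 17.8%). The median difference of all assays was -0.27 in NTera-2 and -0.00 in 2102Ep cells. By the size of the difference in either direction, it had place 42 in NTera-2 cells and place 141 in 2102Ep cells. The value in NTera-2 cells was thus nearer the edge of its distribution than that in 2102Ep cells.

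MiR-184 was measured with little spread. The SD of its dCt was 0.0357 in NTera-2 siSOX2, 0.199 in NTera-2 NC, 0.0867 in 2102Ep siSOX2 and 0.126 in 2102Ep NC samples (n = 3 each). The median SD over assays was 0.312, 0.436, 0.369 and 0.312 in the same groups. Between 1.12% and 16.3% of assays had a smaller SD than miR-184 in a group. Selection on differences between these same samples favours an assay with a small spread, so its spread is a description. In bulk samples, fewer cells that hold a miRNA and less of it per cell cannot be told apart.

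The size of the difference depended on what miR-184 was set against, in particular in 2102Ep cells. In NTera-2 cells it was 1.26 in raw Ct, 1.48 against the card mean (the mean Ct of card A over assays measured in all samples), 1.45 against the card median, 1.07 against U6 and 1.43 against miR-16. Against the small nucleolar RNAs it was 1.10 (RNU44) and 1.19 (RNU48). The arms did not overlap under any of these. In 2102Ep cells it was -0.71 in raw Ct, against the card mean and against U6. Against the card median it was -0.67, and against miR-16 -0.78. Against RNU48 it was -0.50 (pooled SD 0.186). Against RNU44 it was -0.28 (pooled SD 0.259), and the arms overlapped. The Ct of RNU44 itself was 17.8 ± 0.173 with siSOX2 and 17.3 ± 0.23 with NC in 2102Ep cells (SD, n = 3 each), a difference of 0.43 cycles. RNU48 differed by 0.21, U6 by 0.00 and miR-16 by -0.06 cycles there. In NTera-2 cells these 4 RNAs differed by between -0.19 and 0.18 cycles. Of the 4 reference RNAs, RNU44 thus differed most between the arms in 2102Ep cells, but not in NTera-2 cells, where it differed by -0.16 cycles. Its part in the value was not tested beyond this.

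**Figure D2:**
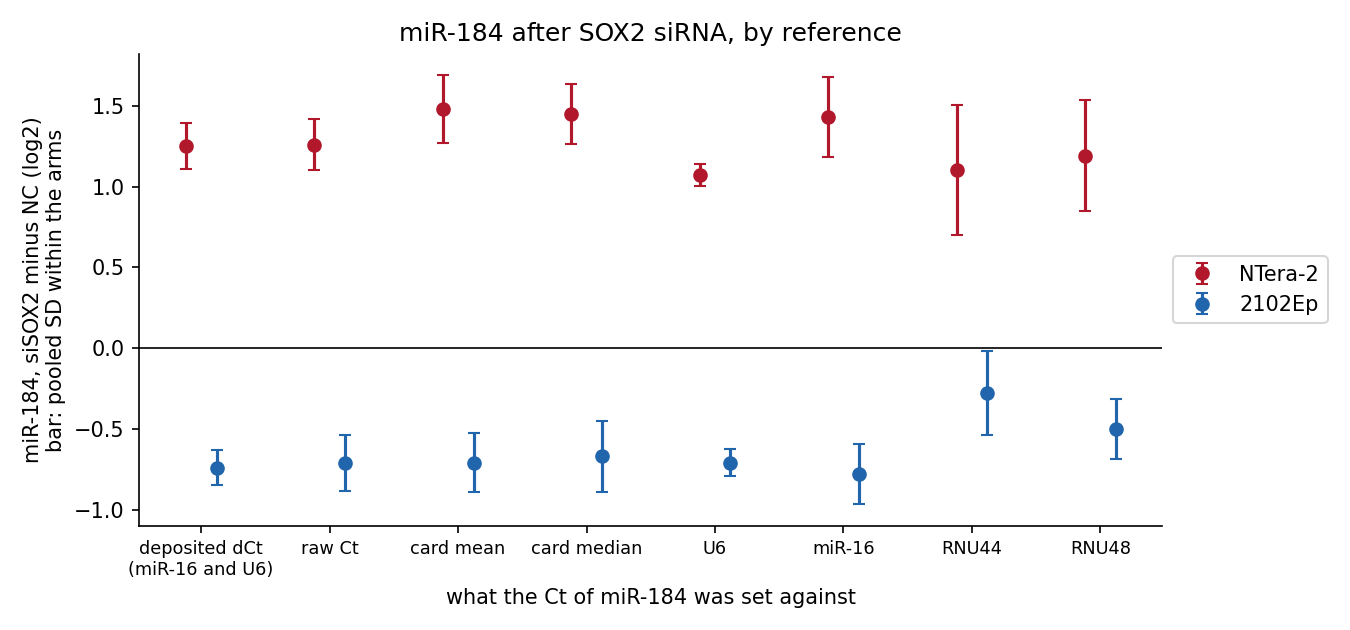
Difference of miR-184 (siSOX2 minus NC, log2) for NTera-2 (left point of each pair) and 2102Ep cells (right point), under 8 choices of reference on the horizontal axis. Bars are the pooled SD within the arms (n = 3 each). NTera-2 values lie between 1.07 and 1.48, and 2102Ep values between -0.78 and -0.28.

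The order of the 4 groups, from most to least miR-184, was 2102Ep NC, 2102Ep siSOX2, NTera-2 siSOX2 and NTera-2 NC. Mean dCt was 4.57 ± 0.126, 5.32 ± 0.0867, 10.9 ± 0.0357 and 12.1 ± 0.199 in this order (SD, n = 3 each). No neighbours in this order overlapped in dCt or in raw Ct. Against RNU44 the 2 groups of 2102Ep cells overlapped. Among all measured assays of a sample ordered by raw Ct, miR-184 stood at places 254 of 451, 242 of 450 and 253 of 449 in NTera-2 siSOX2, against 313 of 449, 333 of 450 and 329 of 451 in NTera-2 NC samples. It stood at 156 of 431, 152 of 421 and 157 of 431 in 2102Ep siSOX2, against 132 of 432, 123 of 433 and 124 of 432 in 2102Ep NC samples. Counted from the most abundant, miR-184 thus lay at 53.8% to 74% of the measured assays in NTera-2 and at 28.4% to 36.4% in 2102Ep cells. Assays differ in efficiency, so a place in this order is a description and not a ratio of molecules.

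On card A alone, its neighbours by mean raw Ct changed with the group. In NTera-2 siSOX2 cells (place 140 of 256, Ct 25.5) they were miR-376c (25.5 ± 0.433) and miR-452 (25.6 ± 0.751). In NTera-2 NC cells (place 185 of 254, Ct 26.8) they were miR-146a (26.8 ± 0.548), a miRNA induced by inflammatory signalling, and miR-616 (26.8 ± 0.366). In 2102Ep siSOX2 cells (place 94 of 252, Ct 23.5) they were miR-18a (23.4 ± 0.563), of the miR-17-92 cluster, and miR-22 (23.6 ± 1.68). In 2102Ep NC cells (place 77 of 264, Ct 22.8) they were miR-92a (22.8 ± 0.172), of the same cluster, and miR-590-5p (22.9 ± 0.13). None of these neighbours differed from miR-184 by more than the spread of its replicates (SD, n = 3 each). MiR-184 therefore stood beside a miRNA of the abundant miR-17-92 cluster in both groups of 2102Ep cells.

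Whether the lines differed in miR-184, as a mean over both arms, is a difference that the selection did not use. Its standard error and p from limma use the spread within groups, however, and the selection favours a small spread. Relative to the card mean of each sample, the level of miR-184 was -0.89, -1.07 and -1.10 in NTera-2 siSOX2 and -2.19, -2.68 and -2.63 in NTera-2 NC samples. It was 0.71, 0.55 and 0.84 in 2102Ep siSOX2 and 1.16, 1.55 and 1.51 in 2102Ep NC samples. All 6 NTera-2 samples lay below the mean of their card and all 6 2102Ep samples above it. The level averaged -1.76 ± 0.83 in NTera-2 and 1.05 ± 0.42 in 2102Ep cells (SD, n = 6 each, both arms). The difference, NTera-2 minus 2102Ep, was -2.81 (standard error 0.15, adjusted p = 1.4e-08 from limma over 385 assays), a fold of 0.142. A two-sided exact permutation test of 6 against 6 samples gave p = 0.0022, the smallest that its 924 arrangements can give. A difference between the lines was the rule and not the exception. Of the 385 assays, 84.4% were called in either direction and 39.7% were called lower in NTera-2 cells. MiR-184 had place 53 from the largest fall.

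**Figure D3:**
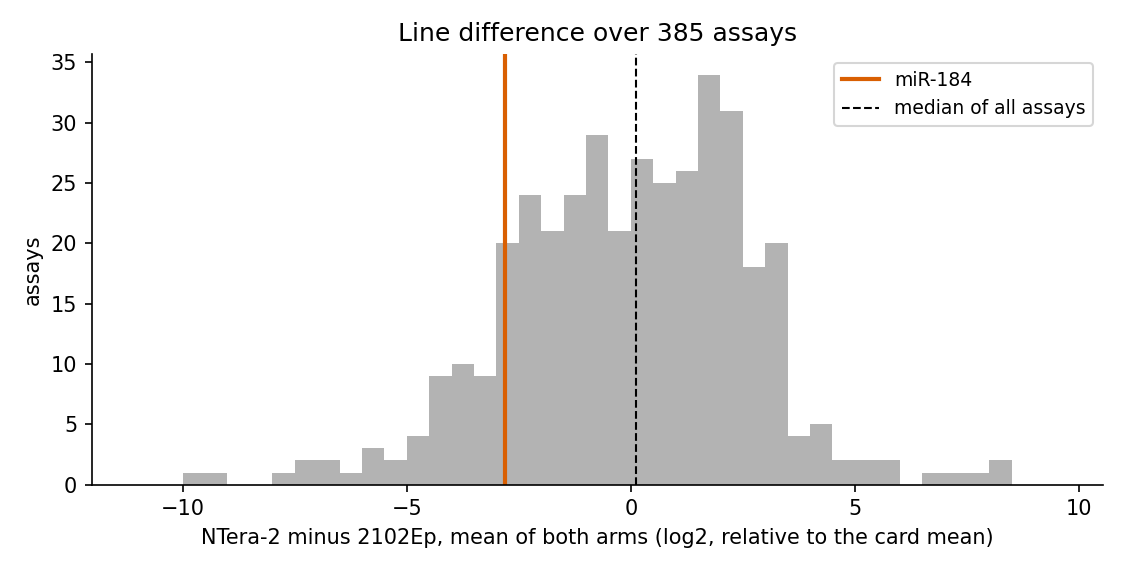
Histogram of the difference NTera-2 minus 2102Ep (log2, relative to the card mean, mean of both arms) over 385 assays, with the number of assays on the vertical axis. The solid line marks miR-184 at -2.81 and the dashed line the median of all assays at 0.12.

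The size of the line difference moved with the reference, since the reference RNAs themselves differed between the lines. As NTera-2 minus 2102Ep, the Ct of U6 differed by -4.18, miR-16 by -2.87, RNU48 by -1.92 and RNU44 by -1.34 cycles. The card mean differed by 0.21 cycles. The difference of miR-184 was -3.02 in raw Ct, -2.33 against the card median, -4.37 against RNU44, -4.94 against RNU48, -5.89 against miR-16, -6.55 in the deposited dCt and -7.20 against U6. It was negative with an adjusted p under the threshold under each of these. Set against the median difference of the 233 card A assays tested, which any 1 reference shifts alike, it was -2.99, with place 32 of 233 from the largest fall.

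The gap between the lines was narrower after SOX2 silencing than in the control cells. Relative to the card mean, NTera-2 minus 2102Ep was -1.72 in siSOX2 and -3.90 in NC samples. In dCt it was -5.55 in siSOX2 and -7.54 in NC samples. The gap was smaller in siSOX2 samples under all 8 references, and the change in NTera-2 minus that in 2102Ep cells lay between 1.38 (RNU44) and 2.21 (miR-16). These values follow from the contrasts that selected miR-184, so no test was made.

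Of the 385 assays tested in both lines, 44 were lower in 2102Ep and higher in NTera-2 cells with siSOX2 by sign alone, 136 the reverse, 146 lower in both and 59 higher in both. In limma fits of all assays, siSOX2 over NC was called higher in 1.77% and lower in 3.77% of 451 assays in NTera-2 cells, and higher in 4.63% and lower in 9.95% of 432 assays in 2102Ep cells (adjusted p under 0.05). With the replicate number as a block, 9 assays were called in NTera-2 cells in place of 25. Leaving aside miR-184, whose values selected it, 1 assay was called lower in 2102Ep and higher in NTera-2 cells, and 1 the reverse.

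The first of these was miR-218, a miRNA of motor neurons whose hairpins lie within the SLIT2 and SLIT3 genes. Its dCt was 8.20, 8.05 and 7.996 in NTera-2 siSOX2, against 8.85, 8.83 and 8.88 in NTera-2 NC samples. In 2102Ep cells it was 5.52, 5.501 and 5.52 with siSOX2, against 4.66, 4.86 and 4.82 with NC. The arms lay apart in both lines, in the same directions as for miR-184. In a line taken alone, arms lay apart in 29% of 451 assays (NTera-2) and 31.9% of 432 assays (2102Ep). MiR-218 rose by 0.77 in NTera-2 (standard error 0.16, adjusted p = 0.023 from limma, 0.067 with the replicate block) and fell by 0.73 in 2102Ep cells (limma, standard error 0.16, adjusted p = 0.01). Its sign held in all 25 alternatives in each line, while its call held in 17 in NTera-2 and in 22 in 2102Ep cells. The call was lost in both lines against RNU44 and RNU48, and in 2102Ep cells also against the card median. In NTera-2 cells it was also lost against U6, with the 6 samples of the line alone and with the replicate block. There it was lost too when NC replicate 3 or either of siSOX2 replicates 2 and 3 was left out. The highest adjusted p over the alternatives was 0.39 in NTera-2 and 0.61 in 2102Ep cells (from limma). The second was miR-181a-2*, the minor strand of a hairpin of miR-181a. Its dCt was 9.20, 9.56 and 9.75 in NTera-2 siSOX2, against 7.47, 6.90 and 7.66 in NTera-2 NC samples. In 2102Ep cells it was 0.58, -0.19 and -0.20 with siSOX2, against 2.14, 1.40 and 1.70 with NC. MiR-181a-2* fell by 2.16 in NTera-2 (standard error 0.31, adjusted p = 0.0024 from limma, 0.01 with the replicate block) and rose by 1.68 in 2102Ep cells (limma, standard error 0.31, adjusted p = 0.0053). In each line its arms lay in the opposite order to those of miR-184. Its level was higher in 2102Ep than in NTera-2 cells in dCt, as for miR-184, but it is on the other card, card B. Relative to the card mean it was higher in NTera-2 cells, by 1.11 (standard error 0.25, adjusted p = 0.0015 from limma), unlike miR-184.

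**Figure D4:**
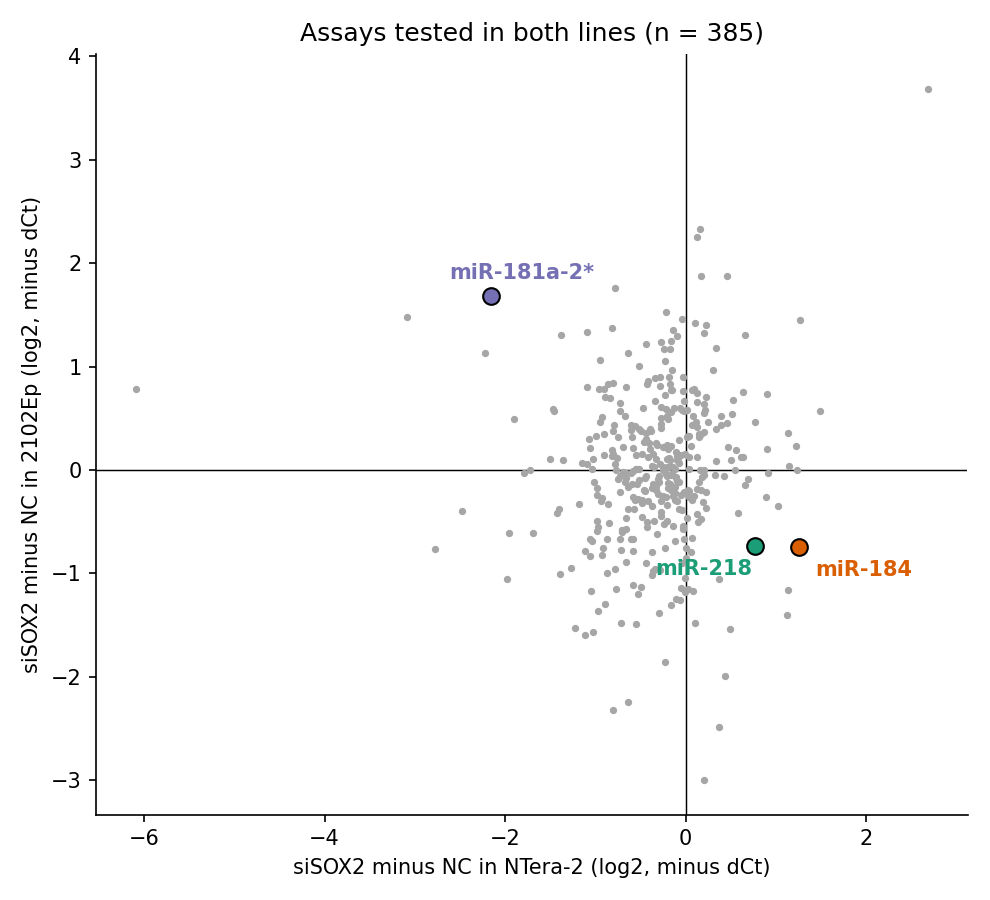
Difference siSOX2 minus NC (log2, minus dCt) in NTera-2 (horizontal) and 2102Ep cells (vertical) for the 385 assays tested in both lines, each a point. MiR-184 (1.25, -0.74) and miR-218 (0.77, -0.73) lie at the lower right and miR-181a-2* (-2.16, 1.68) at the upper left.

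The likeness of other assays to miR-184 was measured as Pearson's r of minus dCt over the 12 samples, after the mean of each line was taken out, among 369 other assays measured in all samples. The 12 points share their samples, their reference RNAs and the siSOX2 contrast, so r is a description. MiR-218 was the most like (r = 0.938), followed by miR-193b (0.818), miR-642 (0.806), miR-872 (0.796) and miR-211 (0.688), all on card A. Over all 369 assays the median r was -0.197 and 3 assays had an r above 0.8. The lowest r was -0.947, that of miR-181a-2*. Against the card mean, miR-218, miR-193b, miR-642 and miR-872 kept places 1 to 4 and miR-211 had place 7. There miR-181a-2* had an r of -0.823 and place 367 of 369, so that it was the least like in dCt and near the end of the order against the card mean.

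The mature sequences of those with an entry in RefSeq (GRCh38.p14) are shown, seed in capitals, because none of the 5 sequences below has the seed of miR-184 or shares a seed with another of them.
hsa-miR-218-5p: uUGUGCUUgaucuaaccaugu
hsa-miR-193b-3p: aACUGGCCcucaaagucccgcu
hsa-miR-642a-5p: gUCCCUCUccaaaugugucuug
hsa-miR-211-5p: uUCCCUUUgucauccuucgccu
hsa-miR-181a-2-3p: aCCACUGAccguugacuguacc
RefSeq places them at chr4:20528299-20528319, chr16:14304017-14304038, chr19:45674943-45674964, chr15:31065095-31065116 (minus strand) and chr9:124692518-124692539, in this order. MiR-211, from an intron of TRPM1 and known from melanocytes and the retinal pigment epithelium, is thus on the same chromosome as miR-184. MiR-872 is named only.

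The next assays in likeness were miR-193b, miR-642 and miR-872. They were named for this likeness, which rests largely on the siSOX2 contrast, so their values are given with no test. MiR-193b had a dCt of 6.41, 6.24 and 6.34 in NTera-2 siSOX2, against 7.63, 7.12 and 7.30 in NTera-2 NC samples. The difference was 1.02 (standard error 0.22) and the arms did not overlap. In 2102Ep cells its dCt was 4.57, 4.26 and 4.47 with siSOX2, against 3.83, 4.43 and 4.004 with NC, and the arms overlapped (-0.35, standard error 0.22). MiR-642 had a dCt of 14.30, 14.26 and 14.04 in NTera-2 siSOX2, against 14.93, 15.05 and 15.37 in NTera-2 NC samples, a difference of 0.92 (standard error 0.20). In 2102Ep cells its difference was -0.03 (standard error 0.20), with overlapping arms. The arms of both assays thus lay apart in NTera-2 cells and overlapped in 2102Ep cells. Arms lay apart in 29% of 451 assays in NTera-2 and in 31.9% of 432 assays in 2102Ep cells. The choice by likeness to miR-184 also favours arms that lie apart. MiR-872 lay in the same directions as miR-184 in both lines, at 1.14 in NTera-2 and -1.16 in 2102Ep cells, with a wider standard error (0.50 and 0.49).

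**Figure D5:**
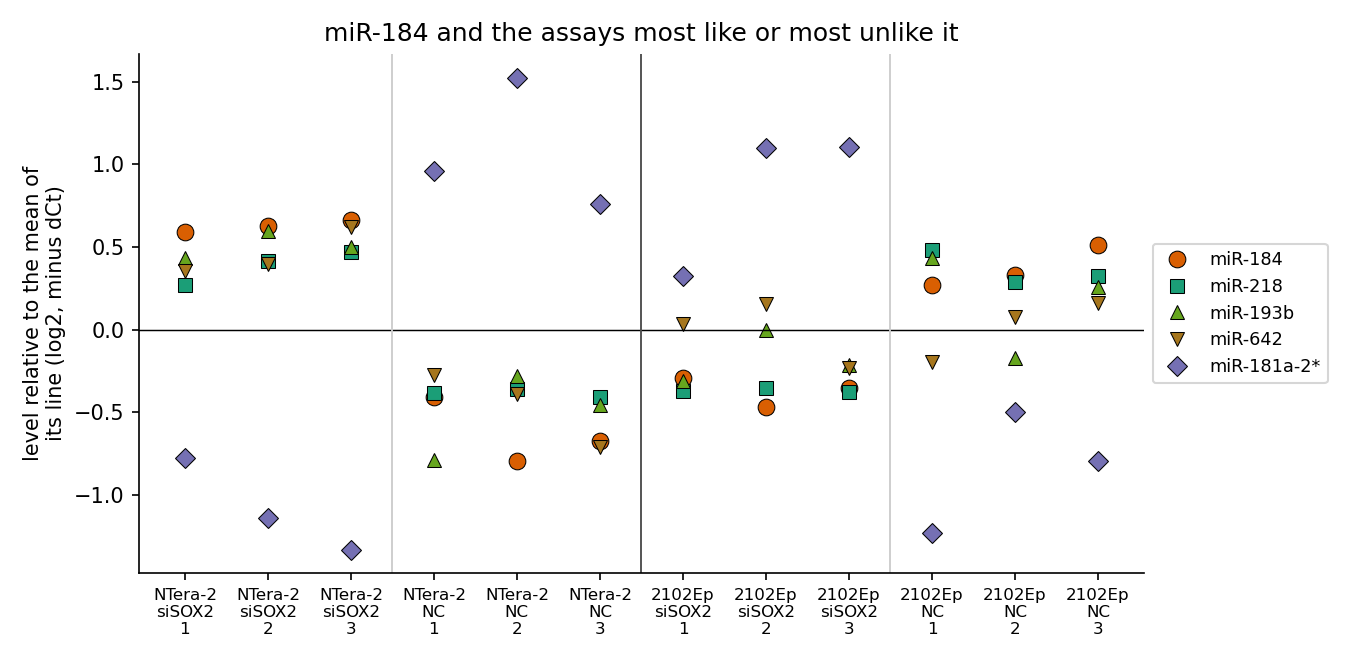
Level (minus dCt, log2) relative to the mean of its line, for miR-184, the 3 assays most like it (miR-218, miR-193b and miR-642) and the least like in dCt (miR-181a-2*), in each of the 12 samples on the horizontal axis. Points of miR-184 and miR-218 lie above 0 in NTera-2 siSOX2 and 2102Ep NC samples and below 0 in the other 2 groups, and those of miR-181a-2* lie on the other side of 0.

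The miRNAs of the tissues where miR-184 is known were set beside it in 3 lists. Of the 10 miRNAs of the ocular and surface epithelium, 0 rose and 1 fell in NTera-2 cells (median 0.13), where 1.77% and 3.77% of all assays did. In 2102Ep cells 1 rose and 5 fell (median -0.87), where 4.63% and 9.95% of all assays did. The 5 that fell in 2102Ep cells were the miR-183, miR-96 and miR-182 cluster of sensory cells (-1.54, -3.00 and -1.06), miR-26a (-0.79) and miR-31 (-0.95), with adjusted p between 0.0088 and 0.021 from limma. Against RNU44 none of these 5 falls was called. MiR-24 rose by 0.97 (adjusted p = 0.01 from limma). None of the cluster was called in NTera-2 cells, at 0.49, 0.21 and 0.37, and the difference between the lines was not tested. By sign, 6 of the 10 were lower in 2102Ep and higher in NTera-2 cells, as were 44 of all 385 assays. On the neural and islet lists described below, 3 of 11 and 2 of 11 were. The 6 were the cluster, miR-211, miR-204 and miR-26a. In NTera-2 cells miR-204 was at only 0.03 and miR-26a at 0.06. MiR-31 fell in NTera-2 cells too, by 1.27 (adjusted p = 0.0049 from limma, 0.053 with the replicate block). MiR-211 was at 1.12 in NTera-2 and -1.40 in 2102Ep cells, without a call in either (adjusted p = 0.2 and 0.075 from limma). Its dCt was 8.41, 7.42 and 8.12 in NTera-2 siSOX2, against 9.74, 8.58 and 8.9997 in NTera-2 NC samples, and 11.96, 11.97 and 13.32 in 2102Ep siSOX2, against 11.00, 11.59 and 10.46 in 2102Ep NC samples. Unlike miR-184, miR-211 was higher in NTera-2 than in 2102Ep cells in dCt. MiR-205 and miR-203, which define surface epithelium, were measured in all samples, and neither was called (miR-205 at 0.02 in NTera-2 and 0.31 in 2102Ep, miR-203 at -0.91 and 0.78).

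Of the neural list, 11 of 12 miRNAs had an assay. In NTera-2 cells 2 rose and 1 fell (median -0.04), where 1.77% and 3.77% of all assays did. In 2102Ep cells 1 rose and 2 fell (median -0.39), where 4.63% and 9.95% of all assays did. Besides miR-218, miR-138, a miRNA of the brain, rose by 1.26 in NTera-2 (adjusted p = 0.024 from limma, 0.067 with the replicate block) and by 1.45 in 2102Ep cells (adjusted p = 0.0033 from limma). Its value in NTera-2 NC rests on 2 samples, replicate 2 being unmeasured, and with unmeasured values set to Ct 40 the call was lost in both lines (highest adjusted p over the alternatives 0.31 in NTera-2 and 0.81 in 2102Ep cells, from limma). MiR-7 fell by 1.18 in NTera-2 cells (adjusted p = 0.026 from limma, 0.053 with the replicate block). MiR-125b fell by 0.67 in 2102Ep cells (adjusted p = 0.048 from limma, 0.082 with the replicate block), a call that held in 7 of 25 alternatives. The neuronal miRNAs miR-9 and miR-124a were not called in either line, miR-9 being at 1.18 in 2102Ep cells (standard error 0.59). The minor strand miR-9*, which is not on the list, rose by 2.26 in 2102Ep cells (adjusted p = 0.00019 from limma). It was not called in NTera-2 cells (0.12).

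Of the islet list, which shares 4 miRNAs with the other lists, 1 of 12 rose and 1 fell in NTera-2 cells (median -0.29), against 1.77% and 3.77% of all assays. In 2102Ep cells 3 of 11 rose and 3 fell (median -0.33), against 4.63% and 9.95% of all assays. MiR-375, the most abundant islet miRNA, rose by 2.68 in NTera-2 (adjusted p = 0.0001 from limma, 0.0043 with the replicate block) and by 3.69 in 2102Ep cells (adjusted p = 3.1e-06 from limma). In 2102Ep cells miR-30d rose by 2.33 and miR-148a fell by 1.86 (adjusted p = 0.0067 and 0.0019 from limma). Over the 3 lists together, 3 of 29 tested rose and 2 fell in NTera-2 cells, where 1.77% and 3.77% of all assays did, and 4 of 28 rose and 8 fell in 2102Ep cells, where 4.63% and 9.95% did. With the replicate block, 1 of the list members, in place of 5, was called in NTera-2 cells.

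The labelled cell type had its markers. All 8 miRNAs of embryonal carcinoma and pluripotent cells (the miR-302 family with miR-367, and the miR-371 cluster) were measured in every sample, at a Ct of 14 to 27 in NTera-2 siSOX2, 13.8 to 25.6 in NTera-2 NC, 16.1 to 21.9 in 2102Ep siSOX2 and 16.1 to 20.7 in 2102Ep NC cells. MiR-371-3p and miR-372 were low in NTera-2 cells, at a mean dCt of 8.24 to 11.4, against -1.54 to 1.45 in 2102Ep cells. Of the 8 miRNAs, miR-372 fell by 1.40 in NTera-2 cells (adjusted p = 0.026 from limma, 0.065 with the replicate block) and none was called in 2102Ep cells. Of all assays, 1.77% were called higher and 3.77% lower in NTera-2 cells, and 4.63% and 9.95% in 2102Ep cells. With so few markers, such counts do not show whether the markers were stable. Markers of other cell types were also detected. The mesenchymal list had 2 of 4 miRNAs with an assay, miR-143 and miR-145. MiR-145 rose by 1.49 in NTera-2 cells (adjusted p = 0.012 from limma, 0.067 with the replicate block) and was at 0.57 in 2102Ep cells (adjusted p = 0.25 from limma), where miR-143 was at 3.48 (adjusted p = 0.069 from limma). 2102Ep siSOX2 replicate 2 had no value for either and is not in these fits. In the neural and surface epithelium lists 2 of 2 were measured, in the muscle list 2 of 3 had an assay and in the blood list 1 of 3. None of them was called in either line, which at the shares of all assays just given does not show stability. As log2 of the summed level (minus dCt scale), the pluripotent list ranged from 2.67 to 2.81 in NTera-2 siSOX2, against 2.82 to 3.09 in NTera-2 NC samples, and from 6.89 to 7.43 in 2102Ep siSOX2, against 7.17 to 7.39 in 2102Ep NC samples. Such sums compare the arms of a line and not the lines, since dCt shifts with the reference. They also depend on the constant that dCt subtracts from the raw Ct on each card. In 2102Ep NC samples this was 18.07 to 18.35 on card A and 24.31 to 24.73 on card B. The leading part of miR-302d, on card B, in the sum of 2102Ep cells therefore depends on this offset. Relative to the card mean, the miR-302 family and miR-367 were higher in NTera-2 than in 2102Ep cells (1.59 to 3.62), as was miR-373 (1.40). MiR-371-3p (-6.05) and miR-372 (-6.56) were lower there. In NTera-2 cells the neural list ranged from -6.87 to -6.23 with siSOX2, against -6.98 to -6.49 with NC. It ranged from -0.985 to -0.15 in 2102Ep siSOX2, against -2.51 to -0.0242 in 2102Ep NC samples. The mesenchymal list, miR-145 alone in NTera-2 cells, ranged from -9.19 to -8.91 in NTera-2 siSOX2, against -11 to -10.1 in NTera-2 NC samples, and the surface epithelium list from -9.17 to -8.83 against -8.91 to -8.59. In 2102Ep cells the surface epithelium list ranged from -2.18 to -1.73 with siSOX2, against -2.55 to -2.14 with NC. There the mesenchymal list reached at most -3.11 with siSOX2, replicate 2 having no value, against -4.89 to -4.38 with NC. The blood list, miR-486 alone, ranged from -10.5 to -10.1 in NTera-2 siSOX2, against -10.8 to -10.6 in NTera-2 NC samples. In 2102Ep cells it ranged from -8.51 to -7.54 with siSOX2, against -8.85 to -7.37 with NC. The muscle list, largely miR-206 on card B, ranged from 2.86 to 3.06 in 2102Ep siSOX2, against 3.33 to 3.67 in 2102Ep NC samples. It ranged from -5.19 to -4.06 in NTera-2 siSOX2, against -5.33 to -4.17 in NTera-2 NC samples. The part of other cell types in the values of miR-184 was not tested.

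Between 449 and 451 assays were measured per NTera-2 sample and between 421 and 433 per 2102Ep sample, 2102Ep siSOX2 replicate 2 having the fewest. No samples shared identical values, and replicates of a group correlated by 0.9427 to 0.9889 in dCt.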

How the data were processed

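The authors deposited 3 tables made with DataAssist 3.0: raw Ct, dCt, and fold changes with p-values. Raw Ct and dCt, as deposited, have the cycle as their unit and are log2 values. The deposited dCt is the raw Ct minus a constant per sample and card. On card B of 2102Ep cells this constant could not be traced to named reference RNAs, and it was used as given. The dCt of card B assays in these cells, such as miR-181a-2*, miR-30d, miR-9* and miR-302d, rests on it. MiR-184 is on card A and is not affected. The authors' fold changes and p-values were not used. From row 105 on, raw values of 2102Ep siSOX2 replicate 3 stood 1 place out of line. Once moved, 337 of 338 (99.7%) lay at the constant within 0.02 cycles, and raw Ct was recovered by adding the constant to dCt.

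Levels are minus dCt, or minus raw Ct relative to the sample's card mean. Assays with values in at least 2 of 3 samples per group were fitted with limma 3.58.1 in R 4.3.3 (4 group means over 12 samples, lmFit and eBayes, two-sided), with Benjamini-Hochberg adjustment over all assays tested and calls at an adjusted p under 0.05. The method was tested on simulated data. Depth is not defined for pre-amplified PCR, so the number of samples and the Ct limit precision.

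Named were miR-184, the 5 assays most like it, assays called in both lines in opposite directions, reference RNAs, list members that passed the threshold or were needed to describe a list, and the neighbours of miR-184. MiR-184 and the lists were chosen with earlier results of these data known. Same-numbered siSOX2 and NC samples correlated in their deviations by 0.118, 0.265 and 0.159 in NTera-2 cells, over 445 assays, and by 0.158, 0.169 and 0.064 in 2102Ep cells, over 413 assays. Samples of different numbers correlated by -0.178 to 0.054 in NTera-2 and by -0.216 to 0.036 in 2102Ep cells, below the same-numbered samples of their line. The numbers were taken to pair the samples of NTera-2, from the data and not the labels, and the block is given there. In 2102Ep cells the margin was narrower, and the block is given for miR-218, miR-125b and the counts. The alternatives were other references, filters on weak or missing assays, other variance models, a replicate block, and each sample left out in turn.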

Additional observations from a re-analysis of the deposited data

Results flagged for a closer look

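SiSOX2 minus NC of miR-184 in NTera-2 minus that in 2102Ep cells was 2.00 on the log2 scale of dCt. Against the mean of NC, the siSOX2 samples lay at 1.22, 1.25 and 1.29 in NTera-2 and at -0.67, -0.84 and -0.73 in 2102Ep cells, so that every sample of each line moved in 1 direction and the lines moved in opposite directions. MiR-184 was selected for this, and the difference was not tested.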

How the results depend on the processing

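The line difference of miR-184 kept its sign and its side of the threshold in 29 of 30 alternatives, with values between -7.20 (U6) and -2.33 (card median), and -2.89 to -2.77 with a sample left out. The exception was an exact permutation test of 3 against 3 means of same-numbered samples (-2.81, p = 0.1), the smallest p this size can give. The count of 325 assays called in the line difference lay between 229 and 377, and 313 to 325 with a sample left out. Its split, 172 higher and 153 lower in NTera-2, was 8 and 369 in the deposited dCt, 5 and 224 against U6, 55 and 256 against RNU44, and 36 and 286 against RNU48. With the raw Ct of 2102Ep siSOX2 replicate 3 as placed in the file, an alternative chosen after seeing the data, the difference was -3.01.

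SiSOX2 minus NC of miR-184 kept its sign in all alternatives. In NTera-2 cells 1.25 moved by more than 1 SD to 1.48 (card mean), 1.45 (card median), 1.43 (miR-16), 1.10 (RNU44) and 1.07 (U6), and lay between 1.17 and 1.36 with a sample left out. In 2102Ep cells -0.74 moved to -0.28 (RNU44) and -0.50 (RNU48), and lay between -0.80 and -0.67 with a sample left out.

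In NTera-2 cells 25 assays were called (8 higher, 17 lower), against 15 with the card mean (9 and 6), 16 with the card median (8 and 8), 4 with RNU44 (2 and 2), 11 with the 6 samples of the line alone and 9 with the replicate block. With a sample left out the count was 10 to 26, and it was 10 without NC replicate 3, 14 without siSOX2 replicate 2 and 15 without siSOX2 replicate 1. Of the list members, 5 were called, against 3 with the card median, U6 or RNU48, 1 with RNU44, 2 with the line alone and 1 with the replicate block, and 2 to 5 with a sample left out (2 without NC replicate 3 or siSOX2 replicate 3, 3 without siSOX2 replicate 2). In 2102Ep cells 63 assays (20 higher, 43 lower) and 12 list members were called, against 19 (16 and 3) and 4 with RNU44, and 74 (48 and 26) assays with RNU48. With a sample left out these were 41 to 68 and 9 to 12, and the lowest count of assays was without NC replicate 3. Falls of miR-96, miR-182 and miR-26a in 2102Ep cells were not called without NC replicate 1, nor miR-96 without NC replicate 3, nor miR-26a without siSOX2 replicate 1 or 3. The cause of these shifts was not tested.

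The replicate block gave -2.81 for the line difference of miR-184 (adjusted p = 3.3e-08 from limma), 318 assays in the line difference, and 51 assays and 11 list members in 2102Ep cells. Same-numbered samples of 2102Ep cells are not taken as pairs in the main values, though they too correlated more than samples of different numbers. Leaving out assays with a mean raw Ct above 35 or 32 moved no count of calls by more than 1.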
